A study of Mus musculus with 14 samples.

Results

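The sections of E14.5 fetal liver and postnatal day 8 (P8) bone marrow were compared for the blood lineages present at each site. Both came from wild-type mice bought from the Jackson Laboratory (C57BL/6 per the study's methods), 1 section of 1 sample a side, profiled by Visium, a probe-based assay that counts transcripts as UMIs (unique molecular identifiers) in spots on a slide, each of which can hold several cells or part of one. Embryos came from timed matings, and P8 bone was taken to avoid decalcification. The E14.5 side held all 854 in-tissue spots, each with at least 1000 detected genes. The P8 sample was leg bone, and its marrow spots were selected on their own readout: of 1094 in-tissue spots, 1085 had at least 1000 genes, and 317 of those carried at least 0.5% of UMIs from 10 granule genes (S100a8, S100a9, Ngp, Camp, Ltf, Lcn2, Mpo, Elane, Prtn3 and Retnlg). The 1171 spots were part of 17319 in-tissue spots in the 14 sections of the series. Counts were summed over each set of spots and given as CPM (the UMIs of a gene scaled to a common total). With 1 section a side no test between animals was possible, so no p-value is given, and the 95% intervals cover counting error only.

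The sums held 56182915 UMIs for E14.5 and 9534780 for P8, with medians of 64102.5 and 30918 UMIs per spot. For a second pair of sites, a wild-type E13.5 fetal liver (491 spots) and the leg bone marrow of an 89-week-old wild-type mouse (932 spots, all of which met the granule rule) were summed the same way. The 89-week file was written by Space Ranger 2.1.1 and the other 3 by Cell Ranger 4, and per the labels the 89-week bone was frozen in gelatin, cryosectioned and freed of bone before paraffin embedding. Age, site, preparation and software cannot be told apart in that pair. Wild-type E14.5 livers of a C1qa-heterozygous cross (numbers 2 and 4) had a smaller feature table (19465 features), and 240 of 806 spots of liver 4 carried 0.5% or more hepatocyte UMIs, against 2190 of 2320 in liver 2. Their values are given beside the others and enter no ratio between sections, only ratios of lists within a section. The labels matched the tissue markers: Alb, the main plasma protein of hepatocytes, was at 15594 CPM at E14.5 and 0.734 CPM in P8 marrow, and Col1a1, the bone matrix collagen, was at 101 and 41567 CPM.

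In the mouse, definitive blood formation expands in the fetal liver, where red cell precursors mature around central macrophages among hepatoblasts, and moves to the bone marrow around birth. Marrow then adds large-scale granulocyte and B-lymphoid production beside bone-forming cells and osteoclasts. Erythroid genes are driven by GATA1 and KLF1, the latter acting through CACCC boxes; granule genes are classical targets of C/EBP factors and PU.1; and platelet factor 4 (Pf4) marks megakaryocytes.

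The regions just before the start sites of the genes that carry the comparison are shown first: Klf1, an adult globin and an embryonic globin for the red cell lineage, Pf4 for megakaryocytes, and Mpo and Elane for granulocytes. These are the 250 bases before each annotated start in RefSeq (GRCm38.p6), 5′ to 3′ on the gene's strand. Capitals mark matches on either strand to 4 short motifs. The site of the erythroid GATA factors was searched as AGATAA. The box bound by KLF1 was searched as CCACACCC. The site of the C/EBP factors was searched as TTNNGCAA, which contains the palindrome TTGCGCAA (present in none of the 27 granule genes below). The site of PU.1 was searched as GAGGAAGT.
Klf1, chr8:84901732-84901981, plus strand: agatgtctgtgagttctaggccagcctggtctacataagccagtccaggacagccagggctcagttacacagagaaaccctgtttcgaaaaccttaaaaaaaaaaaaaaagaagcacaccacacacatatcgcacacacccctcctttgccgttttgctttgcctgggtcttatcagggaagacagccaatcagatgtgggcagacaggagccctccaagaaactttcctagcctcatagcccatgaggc
Hbb-bs, chr7:103827929-103828178, minus strand: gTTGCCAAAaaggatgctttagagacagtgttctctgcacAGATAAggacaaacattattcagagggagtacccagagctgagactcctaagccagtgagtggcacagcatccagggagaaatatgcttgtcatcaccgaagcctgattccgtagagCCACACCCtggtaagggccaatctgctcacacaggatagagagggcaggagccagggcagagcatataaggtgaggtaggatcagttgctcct
Hbb-y, chr7:103853208-103853457, minus strand: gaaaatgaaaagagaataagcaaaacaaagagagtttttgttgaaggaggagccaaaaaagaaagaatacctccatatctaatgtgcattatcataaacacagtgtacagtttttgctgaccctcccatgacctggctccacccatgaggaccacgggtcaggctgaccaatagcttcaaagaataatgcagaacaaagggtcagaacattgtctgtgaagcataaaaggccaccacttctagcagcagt
Pf4, chr5:90772185-90772434, plus strand: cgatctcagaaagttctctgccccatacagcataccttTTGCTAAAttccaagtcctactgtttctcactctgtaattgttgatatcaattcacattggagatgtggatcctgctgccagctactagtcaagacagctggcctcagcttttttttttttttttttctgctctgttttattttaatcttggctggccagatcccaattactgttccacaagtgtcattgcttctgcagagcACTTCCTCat
Mpo, chr11:87793534-87793783, plus strand: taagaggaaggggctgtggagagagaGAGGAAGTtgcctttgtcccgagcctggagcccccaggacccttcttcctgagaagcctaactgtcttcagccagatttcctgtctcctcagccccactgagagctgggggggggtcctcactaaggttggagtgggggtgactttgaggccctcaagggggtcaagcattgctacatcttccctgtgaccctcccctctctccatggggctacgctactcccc
Elane, chr10:79886062-79886311, plus strand: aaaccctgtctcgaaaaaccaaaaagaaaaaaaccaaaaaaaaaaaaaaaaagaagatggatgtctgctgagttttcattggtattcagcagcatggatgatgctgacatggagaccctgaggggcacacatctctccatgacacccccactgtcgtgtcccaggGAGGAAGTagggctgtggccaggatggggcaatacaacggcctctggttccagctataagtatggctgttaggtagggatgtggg
Hbb-bs held a GATA match 210 to 205 bases before the start and a CACCC match from 93 to 86 bases before it, while Hbb-y and Klf1 held none of these letters in the window. Mpo and Elane each held a PU.1 match, from 224 and 85 bases before the start, and Pf4 held one from 10 to 3 bases before it. Of all 27025 genes with a window, 2.79% had a PU.1 match, against 5 of the 27 matched genes of the granule and late neutrophil lists (18.5%). C/EBP matches were present in 8 of those 27 genes (29.6%) and in 10.8% of all genes. In the windows printed above they lay in Hbb-bs and Pf4, and Mpo and Elane held none. GATA matches were present in 9 of 40 erythroid-list genes (22.5%) in 5 of the 27 granule and neutrophil genes (18.5%) and in 11.4% of all genes, and the CACCC match in 1 of 40 (2.50%) against 3.68%. Of the lists, 57 erythroid and 32 granule and neutrophil genes were looked up, so 17 and 5 had no window. A match is a description of the letters only.

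Across 11388 features at 5 CPM or more in 1 of the 2 sections, the median log2 ratio of P8 over E14.5 was 0.11. A list gene below 5 CPM at E14.5 could enter only by being higher in P8 marrow, and one below it in P8 marrow only by being lower, so where such genes fill a list its count is fixed by the filter and the share of UMIs over the whole list is given instead. A ratio of 2-fold or more higher was found for 2804 features (24.6%), and 2-fold or more lower for 912 (8.01%). Higher features made up 75.5% of those past 2-fold by CPM and 56.1% with edgeR TMM factors, which moved the median of the same features from 0.11 to -0.21. The largest ratios were those of the tissues around the blood cells. Among features at 50 CPM or more, the 10 with the lowest ratio were hepatocyte products, headed by Afp (3877 and 0.105 CPM; 1 P8 count, log2 -15.17, -20.48 to -12.70), Alb and Apoa1. The 10 with the highest ratio were bone and cartilage genes, among them Col2a1 (0.196 to 4218 CPM), Bglap2 (0.107 to 1867 CPM) and Bglap (0.107 to 1652 CPM). The hepatocyte list made up 3.15% of E14.5 UMIs and 0.000336% of P8 marrow UMIs, and the bone-forming list 0.0201% and 8.15%. Lower RNA of a lineage in such mixed spots can mean fewer of its cells or less RNA in each, and these cannot be told apart.

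**Figure D1:**
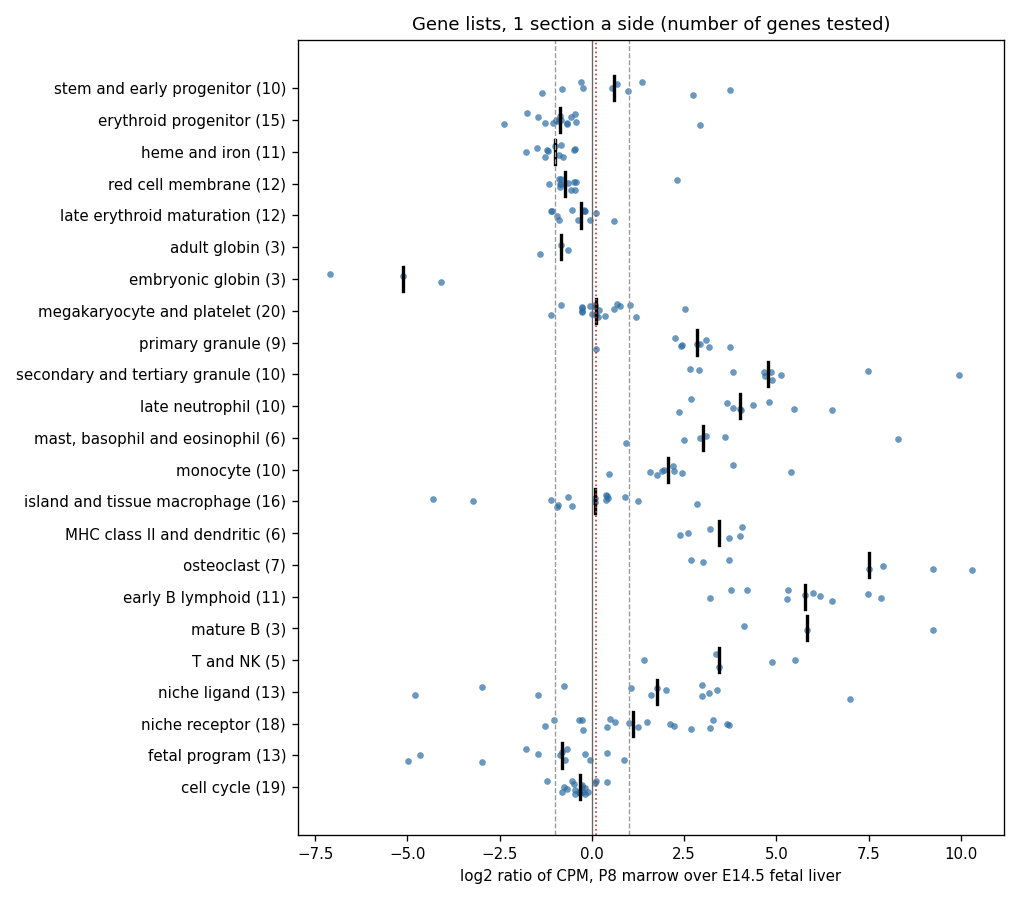
Log2 ratio of CPM in P8 marrow over E14.5 fetal liver (x axis) for each tested gene (points) of 23 lists (rows, number of tested genes in brackets), with list medians as black bars, 2-fold limits dashed and the median of all tested features (0.11) dotted in red. Erythroid list medians sit below 0, the megakaryocyte list spreads around 0, and the granule and lymphoid medians sit above 2.

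The red cell lineage made up a smaller share of the RNA in P8 marrow. Klf1, the erythroid transcription factor named for this comparison, was at 206 CPM at E14.5 and 137 CPM in P8 marrow, a log2 ratio of -0.58 (-0.67 to -0.50). In the other sections it was at 284 CPM at E13.5, 43.7 CPM in the 89-week marrow, and 35.1 and 48.4 CPM in cross livers 2 and 4. In the hepatocyte spots of the cross livers it was at 36.4 and 110 CPM. The cross livers were thus below P8 marrow, so the 2 sites overlapped in Klf1 once all sections were counted. Gata1, the master erythroid and megakaryocyte regulator, was at 292 CPM at E14.5 and 148 CPM in P8 marrow, with 266 CPM at E13.5 and 149 CPM at 89 weeks.

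Of 15 erythroid progenitor genes tested, 5 were 2-fold or more lower in P8 marrow and 1 was higher, with a median log2 ratio of -0.86. Of all features 8.01% were lower and 24.6% higher, with a median of 0.11. Cited4 was lowest relative to E14.5 (120 to 22.9 CPM, log2 -2.39, -2.59 to -2.20), followed by Smim1, which encodes the Vel blood group protein (350 to 104 CPM), and the adhesion molecule Icam4 (174 to 62.9 CPM). Car1, a carbonic anhydrase, went the other way, from 35.6 to 273 CPM (log2 2.94, 2.85 to 3.02). It was at 39.9 CPM at E13.5, 39.2 and 20.0 CPM in the cross livers and 510 CPM at 89 weeks. The highest of the 4 livers was therefore below both marrows, and Car1 stood at 149 CPM when all 1085 P8 spots were summed without the granule rule. Its neighbour in function, Car2, did not share this difference (3912 to 2880 CPM).

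Heme synthesis and iron import genes were lower as a group. Of 11 tested, 5 were 2-fold or more lower (8.01% of all features), none was higher (24.6% of all features), and the median was -0.99. Cpox, a late enzyme of heme synthesis, was at 1197 and 345 CPM (log2 -1.80, -1.85 to -1.75), and Slc25a37, the mitochondrial iron importer mitoferrin-1, at 1723 and 612 CPM. Uros (134 to 55.1 CPM) and Fech, which inserts iron into the porphyrin ring (1196 to 517 CPM), were also past 2-fold. Alas2, the erythroid enzyme that starts the pathway, differed least in the list (1160 to 848 CPM, log2 -0.45). In the 89-week marrow Alas2 was at 1406 CPM, above the 1042 CPM of E13.5, while Cpox was at 186 against 950 CPM.

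Red cell membrane genes had a median of -0.74, with 1 of 12 lower and 1 higher, where 8.01% and 24.6% of all features were. The count of lower genes was thus near the background. Kel, a blood group glycoprotein, was at 522 and 233 CPM, and the 2 next largest decreases (Dmtn and Epb41) were at -0.88 and -0.87 on the log2 scale. Aqp1, a water channel of red cells that vessel lining also makes, was higher, at 180 and 893 CPM (log2 2.31, 2.27 to 2.36), and was at 489 CPM in the P8 spots outside the marrow rule. Late maturation genes had a median of -0.30, with 2 of 12 lower: Xpo7 (366 to 169 CPM) and Trim10 (543 to 255 CPM). Nfe2 and Hemgn stood at -0.96 and -0.88. Bpgm, the red cell enzyme that makes bisphosphoglycerate, moved most against that list (185 to 283 CPM, log2 0.61).

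Globin transcripts set the 2 sites apart by class. The adult beta globin Hbb-bs was at 133231 CPM at E14.5 and 84412 CPM in P8 marrow (log2 -0.66), Hba-a2 at 46531 and 25821 CPM, and Hbb-bt at 19233 and 7208 CPM (log2 -1.42). These paralogs are near-identical in sequence (Hba-a1 had 0 counts in both sections), so their split is uncertain. All 3 embryonic globins were lower, each below 5 CPM in P8 marrow. Hbb-bh1 was at 57.6 and 0.420 CPM (3236 and 4 counts, log2 -7.10, -8.98 to -5.74), Hbb-y at 40.5 and 1.15 CPM (2273 and 11 counts, log2 -5.13, -6.14 to -4.29) and Hba-x at 23.2 and 1.36 CPM (log2 -4.09, -5.00 to -3.31). At E13.5 the same 3 were at 116, 170 and 72.5 CPM. Embryonic globins were thus lower at E14.5 than at E13.5 in these sections, and no marrow section reached 2 CPM of any of them. Cross liver 4 was far above all others, at 4829 CPM of Hbb-y. In its 240 hepatocyte spots alone Hbb-y was at 5998 CPM.

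**Figure D2:**
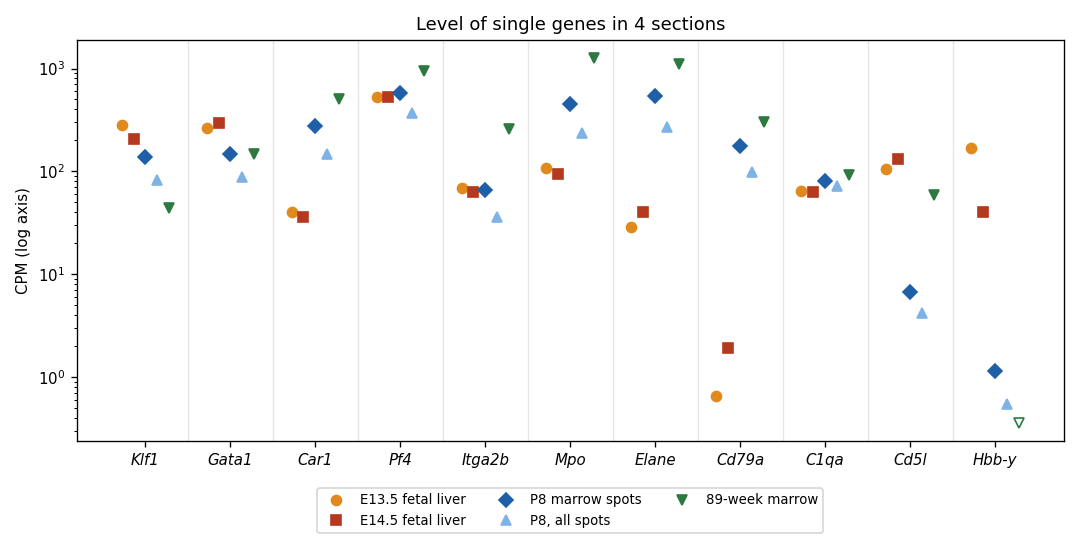
CPM on a log axis of 11 genes (x axis) in E13.5 liver, E14.5 liver, P8 marrow spots, all 1085 P8 spots and 89-week marrow (colours), 1 value a section and no error bar; the open symbol is a count of 0 drawn at the floor of 3 counts. Elane and Cd79a are higher in each marrow set than in both livers, Pf4 differs little between E14.5 and P8 marrow spots, and Hbb-y drops from 170 CPM at E13.5 to 1.15 CPM in P8 marrow.

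Megakaryocyte RNA took about the same share at both sites by CPM. Pf4 was at 531 CPM at E14.5 and 576 CPM in P8 marrow, a log2 ratio of 0.12 (0.07 to 0.16). It was at 532 CPM at E13.5, 940 CPM at 89 weeks, and 312 and 303 CPM in the cross livers. In the hepatocyte spots of those livers it was at 322 and 659 CPM, so 1 liver exceeded P8 marrow. The sign for Pf4 depended on scaling and on the spots: -0.21 with TMM factors, -0.51 over all 1085 P8 spots and 0.42 over the 22 spots with 2% or more granule UMIs.

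Of 20 megakaryocyte and platelet genes, 3 were higher, 1 was lower, and the median was 0.10. With the filter applied anew it became -0.24 with TMM factors and -0.70 over all P8 spots, where the same 20 genes gave -0.60. Both counts were below the shares of all features (24.6% and 8.01%). The genes for the von Willebrand receptor were close to parity (Gp1ba 21.3 and 27.0 CPM, Gp9 70.3 and 80.9 CPM), as was Itga2b, the platelet fibrinogen receptor (62.4 and 66.3 CPM). Selp, the platelet and endothelial P-selectin, was at 0.961 and 5.56 CPM (log2 2.53, 1.96 to 3.11), the transcription factor Fli1 at 30.8 and 70.2 CPM, and Thbs1 at 272 and 558 CPM. Fli1 and Thbs1 were at 44.4 and 862 CPM in the P8 spots outside the marrow rule. F5, coagulation factor V, which hepatocytes also make, was at 45.2 and 21.1 CPM (log2 -1.10). At 89 weeks the list lay higher, with a median log2 ratio of 1.85 over E13.5.

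A ratio within a section does not depend on how CPM is scaled. Per 100 UMIs of the erythroid progenitor list, megakaryocyte UMIs numbered 17.2 (17.0 to 17.3) at E14.5 and 34.9 (34.3 to 35.4) in P8 marrow, 2.03 times as many. The livers spanned 14.2 to 29.2 and the marrows 34.9 to 84.8. The list includes Thbs1, which was higher outside the marrow rule than inside it, and over all P8 spots the ratio was 48.3. Heme list UMIs went from 115 to 84.7, membrane UMIs from 57.5 to 67.4, and adult globin UMIs from 2280 to 2068 per 100 erythroid progenitor UMIs. The cell cycle list, which marks dividing cells of any lineage, went from 69.5 to 79.0. Of its 19 tested genes 1 was 2-fold lower by CPM (Ccnb1, 80.8 to 34.7 CPM), none was higher, and the median was -0.32. Both counts were below the shares of all features (8.01% lower and 24.6% higher). Mcm6, of the replication helicase, was at 447 and 255 CPM, Mki67 at 1506 and 897 CPM, and Birc5, most against the list, at 195 and 261 CPM.

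**Figure D3:**
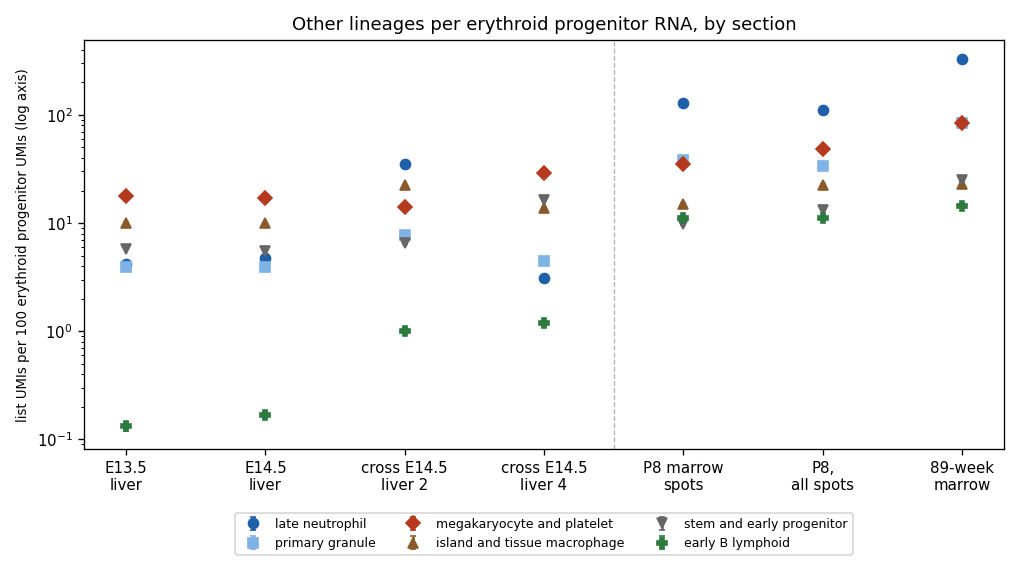
UMIs of 6 gene lists per 100 UMIs of the erythroid progenitor list (log axis) in 4 fetal livers and, right of the dashed line, P8 marrow spots, all P8 spots and 89-week marrow; bars are 95% counting intervals, mostly smaller than the symbols. Late neutrophil UMIs reach 35.5 in the livers and lie at 110 to 327 in the marrows, and early B UMIs at 0.132 to 1.19 and 11.1 to 14.5.

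Granule genes chose the P8 spots, so their levels there are a description. The 10 rule genes made up 0.0729% of UMIs at E14.5, 1.21% in the P8 marrow spots and 0.606% over all 1085 P8 spots. They were at 0.0631% at E13.5, 0.381% and 0.0249% in cross livers 2 and 4, and 2.88% at 89 weeks. Only 2 of the 854 E14.5 spots (0.234%) and none of the 491 E13.5 spots would have met the rule, against 622 of 2320 in cross liver 2. The cross livers therefore differed from each other more than liver 2 differed from the unselected P8 section.

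Mpo, the peroxidase of primary (azurophil) granules, was at 93.6 CPM at E14.5 and 448 CPM in P8 marrow, a log2 ratio of 2.26 (2.20 to 2.32). Over all P8 spots it was at 237 CPM, and outside the rule at 75.7 CPM, below E14.5. The livers spanned 82.7 to 164 CPM, with 171 and 187 CPM in the hepatocyte spots of the cross livers, and the 89-week marrow was at 1254 CPM. Elane, neutrophil elastase, was at 40.6 and 540 CPM (log2 3.73), Prtn3 at 76.1 and 550 CPM, and Retnlg, a late neutrophil gene, at 0.659 and 59.7 CPM (log2 6.50, the largest of the 10). The other 6 rule genes had log2 ratios of 3.83 to 5.12, the highest of them Ltf, the lactoferrin of secondary granules (12.9 to 446 CPM).

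Of 9 primary granule genes tested, 3 of them rule genes, 8 were higher and none was lower (24.6% and 8.01% of all features). Their median was 2.85. As the P8 spots were chosen on granule genes, this count is a description too. The granulocyte transcription factors Cebpe (8.49 to 76.9 CPM) and Gfi1 (1.85 to 14.2 CPM) and the early granulocyte gene Ms4a3 (13.0 to 111 CPM) were among them. Cebpa was not: it was at 33.4 and 36.4 CPM (log2 0.12), and hepatocytes express it too. All 10 secondary and tertiary granule genes tested were higher (24.6% of all features were), but 4 of them were rule genes (Ltf, Camp, Ngp and Lcn2) and the other genes included 4 that passed the filter only through P8. Mmp9, a gelatinase of tertiary granules and of osteoclasts, was at 1.41 and 1382 CPM and at 1988 CPM outside the rule, so its level did not follow the granule genes. Chil3 was at 3 and 90 counts (log2 7.47, 5.87 to 9.77). All 10 late neutrophil genes tested were higher too (24.6% of all features were), of which 3 were rule genes and 7 had passed only through P8. Among them were Padi4, which modifies histones in neutrophils (0.587 to 26.1 CPM), and Wfdc21 (4.93 to 137 CPM).

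Sums over all P8 spots do not use the rule's threshold, and there the primary granule median was 1.89, with 1 of the 9 genes passing the filter only through P8. Primary granule UMIs per 100 erythroid progenitor UMIs were 3.93 at E14.5, 38.5 in the marrow spots and 33.9 over all P8 spots. Late neutrophil UMIs were at 4.76, 130 and 110. The livers spanned 3.90 to 7.81 for the first list and reached 35.5 for the second; in hepatocyte spots alone the cross livers were at 7.82 and 4.06, and at 35.5 and 2.08. Cross liver 2 was at the top of both. In the second pair the primary granule median was 3.47 at 89 weeks over E13.5, where 21.4% of 11007 features were 2-fold or more higher and 22.2% lower.

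Eosinophil granule genes were higher as well: Prg2 was at 37.6 and 317 CPM, Prg3 at 1.48 and 11.2 CPM, and Epx, eosinophil peroxidase, at 2.95 and 35.8 CPM. Their levels outside the rule were 37.8, 0.884 and 3.78 CPM, and at 89 weeks 35.3, 0.593 and 1.66 CPM, close to or below the E14.5 liver in most cases. The P8 marrow spots were thus above both of those sets of spots. Cma1, a connective tissue mast cell protease, had 2 counts at E14.5 and 107 in P8 marrow (log2 8.30, 6.41 to 11.36) and was higher outside the marrow rule (26.4 against 11.2 CPM). The 12 mast, basophil and eosinophil genes made up 0.00539% of UMIs at E14.5, 0.0435% in P8 marrow spots and 0.0113% outside the rule. Of the 6 tested, 4 had passed only through P8.

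B-lymphoid RNA, which the rule did not use, was far higher in P8 marrow. The 14 early B genes together made up 0.00146% of UMIs at E14.5 and 0.0639% in P8 marrow, with 0.00110% at E13.5 and 0.0673% at 89 weeks. Of the 11 tested, 10 had passed the filter only through P8, so their common direction was fixed and is no support. Cd79a, a signalling chain of the B-cell receptor, was at 1.92 CPM at E14.5 (108 counts) and 175 CPM in P8 marrow (1669 counts), a log2 ratio of 6.51 (6.23 to 6.80). It was at 0.652 CPM at E13.5, 16.4 and 2.37 CPM in the cross livers, 97.7 CPM over all P8 spots and 303 CPM at 89 weeks. No liver reached the level of any marrow set. Dntt, the polymerase that adds bases at antibody gene joints, had 3 and 115 counts (log2 7.82, 6.24 to 10.12). Vpreb3, of the pre-B cell, was at 0.481 and 85.0 CPM, and Ebf1, the B-lineage transcription factor, at 0.748 and 54.6 CPM. Ebf1 was also at 41.2 CPM outside the rule, and which cells made it there was not tested.

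Single B-lineage and class II genes differed between the 2 marrows, while the early B list as a whole held 0.0639% of P8 and 0.0673% of 89-week UMIs. Igll1, part of the surrogate light chain, was at 67.4 CPM in P8 and 10.2 CPM in 89-week marrow. Cd79a, of the same list, was higher at 89 weeks than at P8. Ms4a1, the mature B antigen CD20, was at 10.8 and 90.5 CPM, and Cd74, the class II invariant chain, at 90.2 and 2860 CPM. Igll1 is named here after its values were seen. Against E14.5, Ms4a1 had 1 and 103 counts (log2 9.25, 6.74 to 14.56), Fcrla was at 0.641 and 36.8 CPM and Cd22 at 0.463 and 7.97 CPM.

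After each spot was thinned to 2000 UMIs, Cd79a was seen in 2 of 854 E14.5 spots (0.234%, exact interval 0.0284 to 0.843%) and in 79 of 315 P8 marrow spots (25.1%, 20.4 to 30.2%). Without thinning the shares were 9.60% and 83.6%. Vpreb3 was seen in 0 of 854 thinned E14.5 spots, where 3 counts would be a share of 0.351% and the exact upper limit is 0.431%, and in 46 of 315 P8 marrow spots (14.6%). Those limits hold at 2000 UMIs only: without thinning Vpreb3 was seen in 27 of 854 E14.5 spots (3.16%) and in 232 of 317 P8 marrow spots (73.2%). Alb, which marrow should lack, was seen in 1 of 315 thinned P8 marrow spots (0.317%), so both B genes lay well above that level there. The 2 thinned E14.5 spots with Cd79a are too few to set against it. Without thinning, Cd79a was in 9.60% of E14.5 spots and Alb in 1.89% of P8 marrow spots. Thinning left out 2 P8 marrow spots.

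T and NK genes were sparse. The 12 genes made up 0.000840% of UMIs at E14.5 and 0.00682% in P8 marrow, and 4 of the 5 tested had passed only through P8. The values with the largest ratios were those of the granzyme Gzma (17 and 130 counts, log2 5.49, 4.76 to 6.32), Cd4 (12 and 60 counts), Nkg7 (37 and 64 counts) and Tcf7 (71 and 131 counts). Tcf7 was at 25.2 CPM outside the marrow rule, above the 13.7 CPM inside it. The 11 class II and dendritic genes made up 0.00192% and 0.0165%, and 5 of the 6 tested had passed only through P8. Cd74 was at 5.41 and 90.2 CPM, Siglech, of plasmacytoid dendritic cells, at 0.570 and 9.23 CPM, H2-Eb1 at 0.605 and 7.87 CPM and H2-Aa at 1.35 and 12.5 CPM.

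Macrophage genes did not move together. The list had a median of 0.08, with 2 of 16 higher and 3 lower (24.6% and 8.01% of all features). Cd5l, a secreted protein of liver and other tissue macrophages, was at 132 CPM at E14.5 and 6.71 CPM in P8 marrow (log2 -4.30, -4.68 to -3.95). Marco, a scavenger receptor, was at 96.7 and 10.3 CPM (log2 -3.23), and Timd4, a receptor for dying cells, at 16.2 and 7.45 CPM (log2 -1.12). Cd5l was at 105 CPM at E13.5, 222 and 10.5 CPM in the cross livers and 59.0 CPM at 89 weeks, so livers and marrows overlapped. Marco was at 3.79 CPM at 89 weeks, 74.1 CPM at E13.5, and 116 and 19.1 CPM in the hepatocyte spots of the cross livers. Each of these liver values was above both marrows, although cross liver 4 over all its spots (8.56 CPM) was below P8 marrow.

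The complement genes C1qa, C1qb and C1qc, by which the study marks macrophages at the centre of erythroblastic islands, differed little: 62.2 and 80.5 CPM, 61.2 and 80.0 CPM, and 78.5 and 83.5 CPM. Their log2 ratios were 0.37, 0.39 and 0.09, and Vcam1, the island adhesion molecule, was at 59.2 and 80.1 CPM. These 4 and Timd4 are named outside the rule on named genes. Cd68 was higher, at 25.1 and 179 CPM (log2 2.84), as was Maf, at 39.9 and 94.6 CPM. They were at 164 and 144 CPM outside the marrow rule, where osteoclast genes were high too. After thinning, C1qa was seen in 11.7% of E14.5 spots and 10.5% of P8 marrow spots, and Cd5l in 23.1% and 0.635%.

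Of 10 monocyte genes, 9 were higher (24.6% of all features were), with a median of 2.06, and 3 of the 10 had passed only through P8. The list made up 0.0585% of UMIs at E14.5, 0.116% in P8 marrow spots and 0.280% in P8 spots outside the rule. Its summed share was thus higher outside the marrow spots than in them, but not every member was. Klf4 was at 0.854 and 36.2 CPM, Ly6c2 at 4.09 and 58.3 CPM, Cx3cr1 at 2.24 and 12.2 CPM and the M-CSF receptor Csf1r at 28.9 and 136 CPM. Fn1, fibronectin, was within 2-fold (472 and 651 CPM) and had the highest level of the named members. Klf4 and Csf1r were at 63.6 and 112 CPM outside the marrow rule, and Ly6c2 at 8.44 CPM. Klf4 was thus higher outside than inside, while Csf1r and Ly6c2 were higher inside. Osteoclast genes made up 0.0264% at E14.5, 0.424% in P8 marrow spots and 0.394% outside the rule, and 6 of the 7 tested had passed only through P8. Ctsk, the bone-degrading protease, was at 1.94 and 2430 CPM, Dcstamp at 2 and 206 counts (log2 9.25, 7.37 to 12.30), Atp6v0d2 at 0.338 and 80.0 CPM and Oscar at 0.0890 and 16.3 CPM. Acp5, the tartrate-resistant phosphatase, differed least (257 and 1641 CPM). Ctsk was at 2308 CPM outside the rule and 21.2 CPM at 89 weeks. Osteoclast RNA was thus as high outside the marrow spots as inside, but uneven: between the 10th and 90th percentiles its share ran from 0.109 to 1.10% inside and from 0.0346 to 0.765% outside, where 1 spot reached 6.97%. The part of osteoclast RNA in the Mmp9, Cd68 and Csf1r levels was not tested.

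Stem and early progenitor genes showed no common direction. Of 10 tested, 3 were higher and 1 was lower, shares near those of all features (24.6% and 8.01%). Hlf, a stem cell transcription factor, was at 10.2 and 3.99 CPM (log2 -1.36, -1.87 to -0.88). Hoxa9 was at 0.445 and 5.98 CPM (log2 3.75, 3.05 to 4.49), Cd34 at 18.4 and 47.1 CPM, and Ptprc, the pan-leukocyte antigen CD45, at 17.2 and 114 CPM. Hoxa9 was at 18.0 CPM outside the marrow rule and Cd34 was also higher there than inside it, in a limb section with vessels and connective tissue. Kit, the stem cell factor receptor, was at 51.3 and 43.5 CPM.

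The fetal program list had a median of -0.81, with 5 of 13 lower and none higher (8.01% and 24.6% of all features). Lin28b, an RNA-binding protein of fetal blood stem cells, was at 33.4 CPM at E14.5 and 1.05 CPM in P8 marrow (1876 and 10 counts, log2 -4.99, -6.06 to -4.11). The other livers were at 33.0, 14.2 and 21.1 CPM, and the 89-week marrow had 0 counts, so all livers lay above both marrows. Igf2bp1 was at 69.5 and 2.73 CPM (log2 -4.67), Hmga2, a Lin28b-dependent chromatin protein, at 8.05 and 2.31 CPM, and Dlk1, of hepatoblasts and stroma, at 1033 and 130 CPM. Dlk1 was at 1188 CPM in the P8 spots outside the rule and at 0.119 CPM at 89 weeks, and the list's median became 0.18 over all P8 spots. Arid3a moved most against the list (41.0 to 74.4 CPM).

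Signals from the surrounding tissue and their receptors also differed. Of 13 niche ligands tested, 9 were higher and 3 lower, beside 24.6% and 8.01% of all features, and 4 had passed only through P8. Their summed share went the other way from their median (1.75), from 0.177% to 0.0975%. Thpo, thrombopoietin, made mainly by hepatocytes, had 490 and 3 counts (log2 -4.79, -7.08 to -3.24). Cxcl12, the chemokine that retains blood stem cells, was at 41.7 and 373 CPM, and its receptor Cxcr4 at 10.5 and 132 CPM (log2 3.16 and 3.65). Cxcl12 and Cxcr4 were at 43.4 and 8.14 CPM at E13.5 and at 237 and 206 CPM at 89 weeks, so ligand and receptor were both higher in each marrow than in those livers. Tnfsf11, the osteoclast factor RANKL, was at 0.249 and 31.9 CPM, and its receptor Tnfrsf11a at 1.57 and 20.5 CPM. Bmp4 was at 0.961 and 10.2 CPM.

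Of 18 receptors tested, 9 were higher (24.6% of all features) and 2 lower (8.01%), the latter near the background, and 3 had passed only through P8. Epor, the erythropoietin receptor, was at 89.5 and 37.2 CPM (log2 -1.26, -1.42 to -1.11), in the direction of the erythroid lists, and Itga4, the integrin partner of Vcam1, at 188 and 91.6 CPM. Epo itself had 46 and 1 counts (log2 -2.96, -8.30 to -0.41). Tnfrsf13c, the BAFF receptor of B cells, was at 2.37 and 22.8 CPM, and Il7r at 0.587 and 5.35 CPM. Il7r had 33 and 51 counts, so its log2 ratio of 3.19 rests on few molecules.

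The 2 sets of spots also differed in how evenly the erythroid share was spread. At E14.5 the erythroid progenitor share ran from 0.751% at the 10th percentile of spots to 0.955% at the 90th, with a median of 0.866%. In P8 marrow it ran from 0.187% to 0.829%, with a median of 0.477%. The highest P8 spots thus reached the liver's level, and the low ones lay below every liver spot (lowest 0.495%). After thinning to 2000 UMIs, the variance of erythroid progenitor UMIs over their mean, which is 1 for counting error alone, was 1.09 at E14.5 and 2.96 in P8 marrow. Adjacent spots resembled each other in P8 marrow (r = 0.55 with the mean of their neighbours, 308 spots) more than at E14.5 (r = 0.15, 853 spots). Neighbouring spots share tissue and can share diffused RNA. P8 marrow spots also varied in bone content, with a bone-forming share of 2.38% to 17.4% between those percentiles and a neighbour correlation of 0.72. Thinned erythroid progenitor and bone-forming UMIs had r = -0.63 there and -0.09 at E14.5. The part of bone content in the erythroid spread was not tested.

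Megakaryocyte UMIs were uneven at both sites. The thinned variance over mean was 2.83 at E14.5 and 4.04 in P8 marrow, and single spots reached 20 and 34 megakaryocyte UMIs of 2000, against means of 2.82 and 3.59. The percentile range was 0.0530 to 0.259% and 0.0769 to 0.286%. Neighbour correlations were 0.34 and 0.24. Primary granule UMIs had a neighbour correlation of 0.03 at E14.5 and 0.31 in P8 marrow. Early B UMIs averaged 0.0293 per thinned spot at E14.5, where no spot held more than 1. Their variance over mean there (0.972) therefore cannot show how evenly they lay. In P8 marrow, with a mean of 1.22, it was 1.14.

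**Figure D4:**
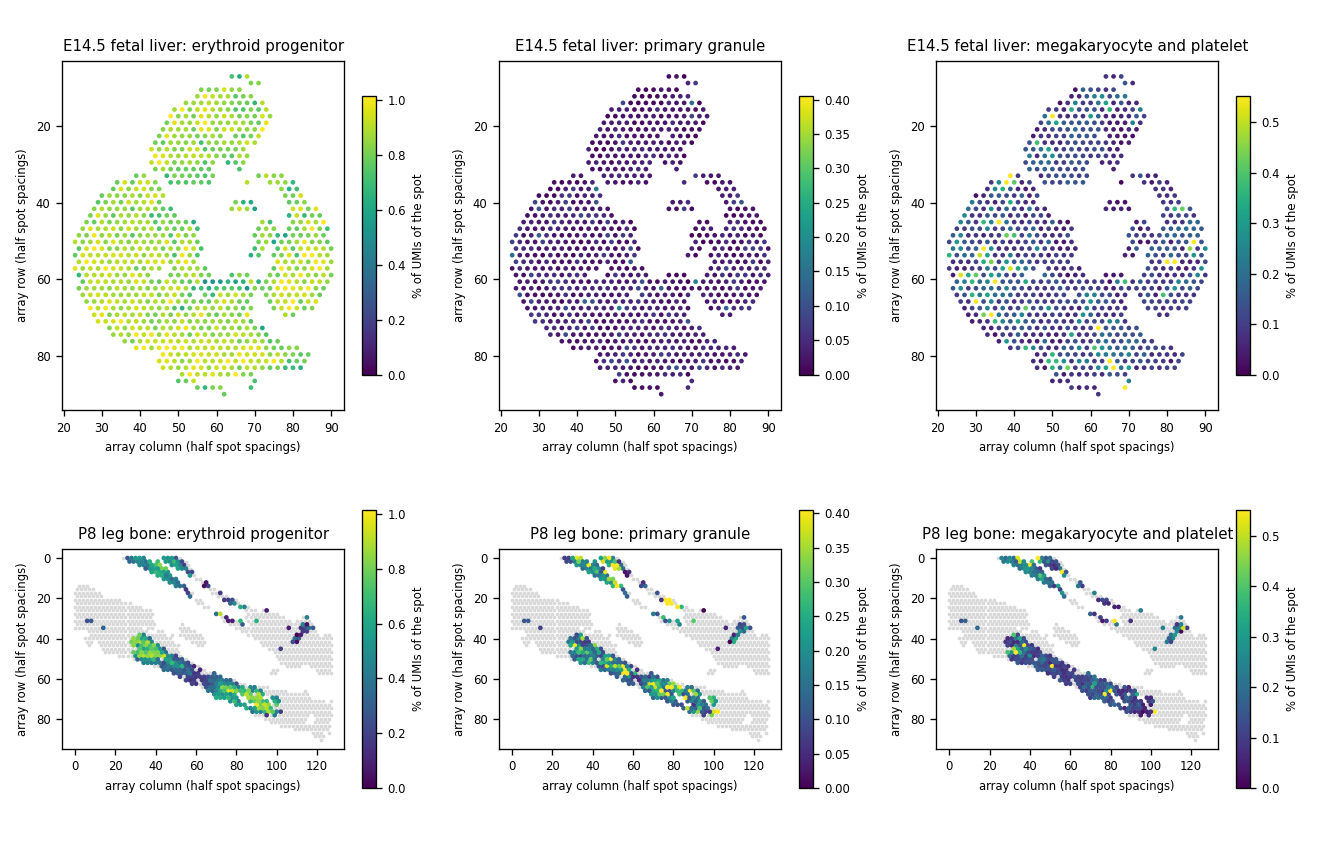
Spots at their array positions (array columns and rows) for E14.5 fetal liver (top) and the P8 leg bone (bottom, spots outside the marrow rule in grey), coloured by the percent of each spot's UMIs from 3 lists, on 1 colour scale per list that ends at the 98th percentile. Erythroid progenitor share is even in the liver (median 0.866%) and varies along the P8 marrow (median 0.477%), while high megakaryocyte spots are scattered at both sites.

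Within the P8 section the other blood lineages could be followed against the granule share, which the rule did use. In the 357 spots under 0.1% granule UMIs, the erythroid progenitor list made up 0.0588% of UMIs, in the 133 spots at 1 to 2% it made up 0.614%, and in the 22 spots above 2% it made up 0.525%. Klf1 was at 11.2, 153 and 134 CPM in those spots, and Cd79a at 11.5, 196 and 244 CPM. Megakaryocyte share varied less, at 0.141%, 0.206% and 0.241%, with its lowest value of 0.107% in the spots at 0.1 to 0.25%. Macrophage share was at 0.0667%, 0.0888% and 0.0832%. The summed share of the monocyte list, which includes Fn1, went the other way, at 0.339%, 0.106% and 0.113%. Bone-forming share was 13.3%, 6.67% and 5.86%. Early B UMIs per 100 erythroid progenitor UMIs stayed between 9.65 and 16.1 over all 6 bins. The same ratio for the megakaryocyte list was 240 in the spots under 0.1% granule UMIs and between 33.5 and 51.8 in the other bins.

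**Figure D5:**
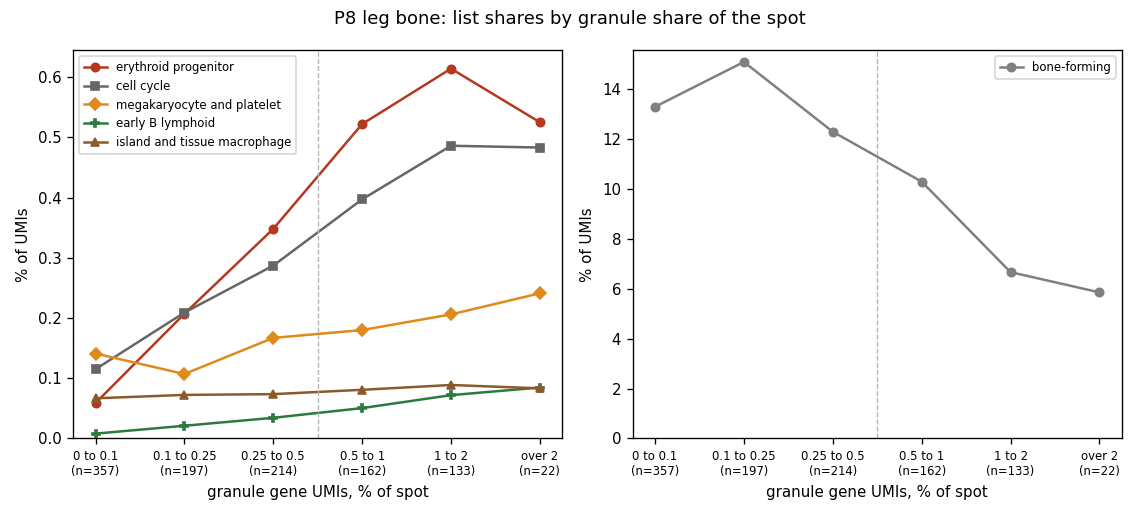
Share of UMIs (y axes, %) of 5 lists (left) and of the bone-forming list (right) in P8 spots grouped by the share of granule-gene UMIs (x axis, number of spots in brackets), with the 0.5% rule dashed; each point is the pooled share of its spots and has no error bar. Erythroid progenitor share is 0.0588% in the first group and 0.614% at 1 to 2%, and bone-forming share is 13.3% and 6.67%.

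The rule's limit fell within a continuous range. The 10 spots just inside it held 0.501 to 0.521% granule UMIs, with Klf1 at 72.3 CPM and Pf4 at 684 CPM. The 10 just outside held 0.475 to 0.495%, with Klf1 at 86.1 CPM and Pf4 at 86.1 CPM. Their median depths were 12263 and 4504 UMIs. Cd79a was also at 86.1 CPM in the 10 spots just outside, so these equal values rest on few UMIs. The Pf4 difference therefore cannot show a step at the limit. In the 84 marrow spots with under 5% bone-forming UMIs, the Klf1 log2 ratio to E14.5 was -0.25, that of Mpo 2.20 and that of Pf4 0.47, and their medians for the megakaryocyte and cell cycle lists were 0.51 and -0.10.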

How the data were processed

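Spot-level UMI counts were deposited by the authors as gene-by-spot matrices with barcodes, feature lists and array positions, and are raw counts, not normalized. Per the study's methods, FFPE sections were hybridized with probe pairs of the 10x Genomics Visium kit, so levels are not comparable between genes. The submitters' processing notes name Space Ranger and mm10, and the headers of the E14.5, P8 and E13.5 files name Cell Ranger 4. Spots in tissue with at least 1000 genes were kept (for P8 marrow also 0.5% granule UMIs), summed per section and scaled to CPM. A spot can hold several cells, and no doublet caller was run. Features named as deprecated (0.436% and 0.639% of UMIs) stayed in the totals and are not named.

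Features at 5 CPM or more in 1 section (called tested) were read against a 2-fold limit, and counts of 0 were set to a floor of 3. Intervals are exact (Clopper-Pearson on the split of counts), and shares of spots were compared after thinning each spot to 2000 UMIs. The ratio code was checked on simulated data. Python 3.11.15, scipy 1.17.1 and edgeR 4.0.16 (TMM factors) were used. Promoter windows came from RefSeq. Members and lists were chosen with earlier results of these data known. Of each list, the text names the 4 genes with the largest absolute log2 ratio and the one most against its list; Klf1, Mpo, Pf4 and the granule rule genes are always named; over all genes at 50 CPM or more, the 10 largest ratios each way were taken; further names were chosen after their values were seen. Alternatives are given in the closing section. The spleens, knockout livers and EDTA-treated bone gave only spot numbers and, for the cross, the spread between replicate sections.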

Additional observations from a re-analysis of the deposited data

How the results depend on the processing

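Over 14 other settings, the medians of 21 blood lists were set against the spread between replicate sections of the cross. Of these 21, no list with a median past 2-fold changed sign. The spread was wide for some lists, with an SD on the log2 scale of 2.29 for embryonic globin, 1.62 for primary granule and 1.29 for adult globin. A move of 2-fold can fall within it there. For these medians and the counts of genes past 2-fold, which had a limit of their own, 47 values moved and 277 did not. The niche and tissue lists were run too and are not set out here. With Klf1, Mpo and Pf4, 27 of the niche and tissue values moved by that spread or more and 113 did not. Of the blood lists with a median within 2-fold, the late erythroid, megakaryocyte, macrophage and fetal program lists changed sign. Their ranges were -0.94 to 0.02, -0.70 to 0.51, -0.24 to 0.22 and -1.14 to 0.18. The 854 E14.5 spots all met the hepatocyte setting, so it changed nothing. The 4-fold limit left 1545 higher and 431 lower genes. TMM gave 1719 lower genes, a megakaryocyte median of -0.24 and a cell cycle median of -0.64; size factors gave 1708, -0.24 and -0.64. Without a filter 5173 genes were higher, with mature B at 4.18 and osteoclast at 6.62; at 1 CPM mature B was at 5.03, T and NK at 4.43 and osteoclast at 6.62. At 2% granule UMIs (22 spots) the medians were 0.42 for megakaryocyte, 4.82 for late neutrophil, 2.43 for monocyte, 4.28 for T and NK, and 4.26 for mast, basophil and eosinophil genes. Over all 1085 P8 spots they were -1.58 for erythroid progenitor, -1.66 for heme, -1.35 for membrane, -0.70 for megakaryocyte, 3.15 for late neutrophil, 2.87 for class II, 5.06 for early B, 6.63 for mature B, 2.33 for mast, 0.18 for fetal program and -0.93 for cell cycle genes. The filter was applied anew in each setting, so the genes behind a median can differ. For the mature B genes of the main setting the median over all P8 spots was 4.87, against 5.84 in the marrow spots. Thinned to 2000 UMIs, 1383 genes were lower, with 2.55 for class II, 5.06 for early B, 2.26 for mature B, 1.94 for T and NK, 2.48 for mast, 3.80 for osteoclast and -0.67 for cell cycle genes; sparse genes then rest on the floor. As a mean over spots, class II was at 2.85, mast at 2.67, osteoclast at 8.08 and cell cycle at -0.55. Chosen after seeing the data, the 84 spots under 5% bone-forming UMIs gave 0.51 for megakaryocyte, 3.40 for mast, 6.18 for osteoclast and -0.10 for cell cycle genes, and totals without hemoglobin and tissue genes gave 4.12 for T and NK. For the other moves the cause was not tested. No paired analysis was possible because each side had 1 section, and for the same reason none could be left out. Genes with few counts, such as Dntt, Ms4a1 and Thpo, have wide intervals at this depth.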
